A study of Mus musculus with 12 samples.

Results

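The serine synthesis and one-carbon folate enzymes are encoded by 10 of the 24453 genes in the count table. They were taken by name, not by their counts: *Phgdh*, *Psat1* and *Psph* of serine synthesis, *Shmt1*, *Mthfd1* and *Aldh1l1* of the cytosolic folate arm, and *Shmt2*, *Mthfd2*, *Mthfd1l* and *Aldh1l2* of the mitochondrial arm. All 10 passed the filter on low counts that left 14026 genes for testing, but *Aldh1l1* passed it only through its counts in TM6 and PKO-6 MEFs. RNA was sequenced from 4 lines of immortalized C57BL6/J mouse embryonic fibroblasts (MEFs), with 3 cultures per line and 12 libraries in all. TM6 is the untreated parental line, whose *Pnpt1* alleles are both floxed (labelled *Pnpt1* neo-flox/neo-flox, as are the other lines). *Pnpt1* encodes PNPase, a mitochondrial exoribonuclease. The rho0 line was derived from TM6 with ditercalinium dichloride dihydrochloride, a drug that depletes mitochondrial DNA (mtDNA), at 750 ng/mL over 3 weeks, and grown up from a single cell. PKO-1 and PKO-6 are single cell clones of TM6 that received Cre recombinase from an adenovirus, which removes the floxed part of *Pnpt1*. Every line was fed uridine at 50 µg/mL. The rho0 line is 1 colony and the knockout is held by 2 clones, so the replicates of a line are cultures of 1 clone and their spread holds no difference between clones.

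Cells make serine from a glycolytic intermediate: PHGDH oxidizes it, PSAT1 adds an amino group and PSPH removes the phosphate. Serine hydroxymethyltransferases, SHMT1 in the cytosol and SHMT2 in mitochondria, then pass a carbon from serine to tetrahydrofolate and leave glycine. In mitochondria MTHFD2 and MTHFD1L carry that carbon on to formate, which leaves the organelle, and in the cytosol MTHFD1 takes formate up again for purine and thymidylate synthesis. ALDH1L1 in the cytosol and ALDH1L2 in mitochondria instead oxidize the formyl group to carbon dioxide and make NADPH. Several of these genes are known targets of ATF4, the transcription factor of the integrated stress response, which is known to be active in cells with failing mitochondria. The comparisons below ask which enzymes differ from the parental line in rho0 and in the knockout clones. They also ask whether the arms of the 2 compartments move alike. The study reports that the knockout clones lost their mtDNA too. In these clones PNPase loss and mtDNA loss cannot be told apart.

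Library totals were 47164860 to 67991378 counts (median 55405647), of which *Rn45s*, the ribosomal RNA precursor, took 12.2% to 19.6%. *Pnpt1* had a mean of 3131 normalized counts in TM6, 5271 in rho0, 1240 in PKO-1 and 1944 in PKO-6, and it was called lower than TM6 in both knockout clones, although the counts also cover the exons that Cre leaves in place. Normalized counts are read counts corrected for library size, on the scale of an average library. The collagen genes *Col1a1* and *Col1a2* and the fibroblast filament gene *Vim* had means of at least 38369 normalized counts in every line (the lowest being *Col1a1* in PKO-6), whereas *Thy1*, another fibroblast marker, had a mean of 2.81 in TM6 and 0 in PKO-6. The summed level of the 10 listed fibroblast markers was 429025 to 473527 in TM6, 215843 to 267145 in rho0, 360476 to 380766 in PKO-1 and 145376 to 189443 in PKO-6. That of 5 epithelial markers was 1640 to 1778, 2431 to 2897, 1953 to 2083 and 2808 to 3263 in the same order, most of it from *Krt19*, with line means of 1203 to 2880. *Krt18* reached a mean of 816 in PKO-1, and *Epcam* stood at 4.35 in TM6 and 88.0 in PKO-6, while *Cdh1* was at 1.14 to 9.42. Endothelial markers summed to at most 177 and blood and macrophage markers to at most 211 in any library, with *Adgre1* at 0 throughout. Neural markers, mostly *Map2*, summed to 2214 to 5333 and muscle markers to at most 54.8, with *Myog* at 0. Replicates of a line, scaled only by their totals over tested genes with *Rn45s* included, differed at a chi-square per degree of freedom of 4.38 to 67.1. A change in the *Rn45s* share shifts every other gene in this measure, so the values are no estimate of spread beyond sampling noise. In rho0, replicate 1 differed from replicates 2 and 3 at 63.4 and 43.8, and these from each other at 4.38. In PKO-6, replicate 3 differed from replicates 1 and 2 at 32.4 and 67.1, and these from each other at 21.04. *Rn45s* took 19.6%, 15.8% and 15.8% of rho0 replicates 1, 2 and 3, and 17.8%, 19.2% and 12.2% of those of PKO-6. The part of *Rn45s* in these values was not tested. The fibroblast sum was lowest, and the epithelial sum highest, in rho0 and PKO-6, the lines in which most of the enzymes below stood highest, and the part of this in the enzyme levels was not tested. In bulk RNA, a change in the share of cells that express a gene and a change in RNA per cell cannot be told apart.

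**Figure D1:**
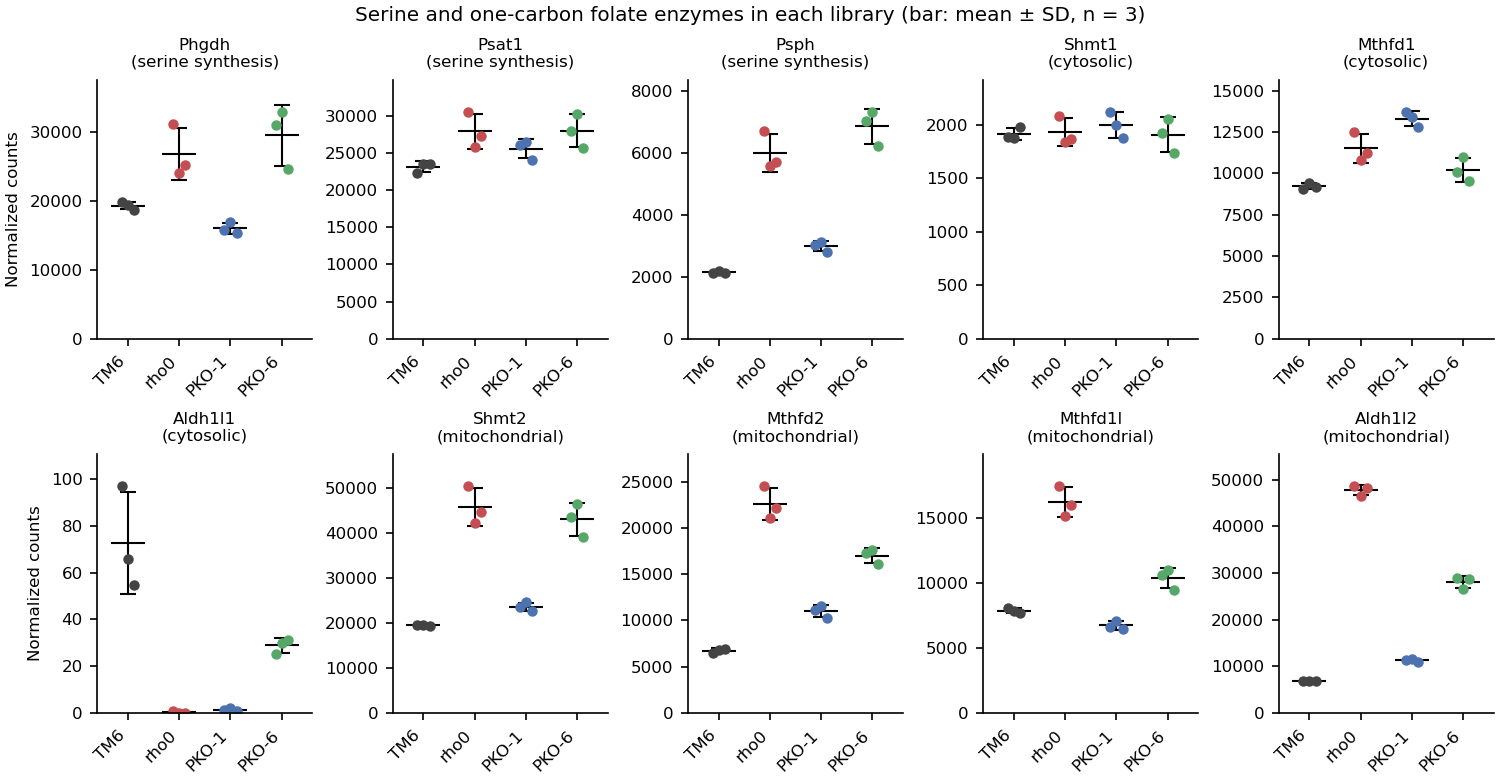
Normalized counts of the 10 enzymes (vertical axes, each from 0) in the 4 lines (horizontal axes). Points are the 3 libraries of a line, and bars are the mean with the SD. For *Psph*, *Shmt2*, *Mthfd2* and *Aldh1l2*, all rho0 and PKO-6 libraries lie above all PKO-1 libraries and these above all TM6 libraries, whereas the lines overlap for *Shmt1* and *Aldh1l1* is nearly absent from rho0 and PKO-1.

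The quasi-likelihood test of edgeR compared the lines in 1 fit of all 4, and p-values were adjusted over the 14026 genes by the Benjamini-Hochberg method. A gene was called where the adjusted p was under 0.01 and the log2 fold change exceeded 0.5 in size. In rho0 against TM6, 5 of the 10 enzymes were called higher, where 20.7% of all tested genes were, and 1 was called lower, against 21.4%. In PKO-6 against TM6 again 5 were called higher (21.9% of all genes) and 1 lower (19.4%). In PKO-1 against TM6, 3 were called higher (16.4%) and 1 lower (17.9%). The member called lower was *Aldh1l1* each time, which passed the filter through TM6 and PKO-6 only. The median log2 fold change over the 10 enzymes was 0.76 in rho0, 0.51 in PKO-6 and 0.21 in PKO-1, and that over all tested genes was 0.02, 0.01 and 0.00086. Without rho0 replicate 1 the counts in rho0 were still 5 and 1, as were those in PKO-6 without PKO-6 replicate 3. These comparisons share the TM6 libraries and are not independent of each other. All libraries of rho0 lay above all TM6 libraries for 8 of the enzymes and below them for 1, where 35.8% and 37% of tested genes did. For PKO-6 these counts were likewise 8 and 1 (36.8% and 35.1% of genes), and for PKO-1 they were 6 and 3 (36.7% and 35%).

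The first enzyme of serine synthesis, *Phgdh* (chromosome 3, 98313171 to 98339969, minus strand, 12 exons), had 19807, 19477 and 18751 normalized counts in the TM6 libraries, 31164, 24119 and 25235 in rho0, 15752, 16978 and 15338 in PKO-1 and 31070, 32937 and 24586 in PKO-6. PKO-1 lay below TM6 in every library, and rho0 and PKO-6, which overlapped each other, lay above it. The log2 fold change against TM6 was 0.61 in PKO-6 (standard error 0.11, adjusted p = 1.75e-04), which was called, 0.47 in rho0 (standard error 0.11, adjusted p = 0.00138), which was not because of its size, and -0.27 in PKO-1 (standard error 0.11, adjusted p = 0.0401). The rho0 call depends on the processing: *Phgdh* was called without rho0 replicate 2, at 0.52, and after removal of chromosome medians, at 0.64. The PKO-6 call was lost without PKO-6 replicate 2, at 0.49. Between the clones *Phgdh* differed by -0.88, as PKO-1 minus PKO-6 (standard error 0.11, adjusted p = 8.97e-06).

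*Psat1*, the aminotransferase (chromosome 19, 15905123 to 15925059, minus strand, 9 exons), had the smallest differences of the 3. Its normalized counts were 22322, 23565 and 23566 in TM6, 30524, 25868 and 27342 in rho0, 26084, 26509 and 24130 in PKO-1, and 28017, 30247 and 25743 in PKO-6. Every library of the derived lines exceeded every TM6 library, but the log2 fold changes of 0.27 in rho0, 0.27 in PKO-6 and 0.14 in PKO-1 (standard error 0.07 each) were under the threshold and none was called. The 95% confidence intervals were 0.11 to 0.43 for rho0, 0.11 to 0.44 for PKO-6 and -0.02 to 0.30 for PKO-1.

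*Psph*, the phosphatase that finishes serine (chromosome 5, 129765558 to 129787253, minus strand, 8 exons), had the largest change of the 3. TM6 libraries held 2123, 2193 and 2125 normalized counts, rho0 libraries 6718, 5573 and 5713, PKO-1 libraries 3013, 3122 and 2806, and PKO-6 libraries 7039, 7321 and 6235. No library of rho0, PKO-1 or PKO-6 overlapped TM6, and rho0 and PKO-6 overlapped only each other. *Psph* was 2.80-fold higher in rho0 (log2 fold change 1.48, standard error 0.08, adjusted p = 1.2e-09) and 3.20-fold higher in PKO-6 (1.68, standard error 0.08, adjusted p = 2.85e-10). In PKO-1 the difference of 0.47 (standard error 0.08, adjusted p = 1.13e-04) was just under the fold threshold, and without PKO-1 replicate 3 it was called, at 0.52. PKO-1 and PKO-6 differed by -1.204 (standard error 0.08, adjusted p = 1.45e-08).

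In the cytosolic arm, *Shmt1* (chromosome 11, 60788897 to 60811265, minus strand, 12 exons) did not change detectably. TM6 had 1883, 1881 and 1978 normalized counts, rho0 2082, 1844 and 1867, PKO-1 2120, 1998 and 1881, and PKO-6 1928, 2058 and 1736. All 4 lines overlapped. The log2 fold changes against TM6 were 0.01 in rho0, 0.06 in PKO-1 and -0.01 in PKO-6, and their 95% confidence intervals, from -0.14 to 0.16, -0.09 to 0.21 and -0.16 to 0.15, reached neither threshold of 0.5.

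*Mthfd1*, the trifunctional enzyme that loads formate onto folate in the cytosol (chromosome 12, 76255232 to 76319820, plus strand, 28 exons), was highest in PKO-1. Its normalized counts were 9072, 9431 and 9167 in TM6, 12500, 10821 and 11217 in rho0, 13715, 13411 and 12820 in PKO-1, and 10095, 11012 and 9564 in PKO-6. All libraries of the derived lines lay above TM6. *Mthfd1* was called higher in PKO-1, at 0.53 (standard error 0.07, adjusted p = 7.73e-06), and not in rho0 at 0.32 (standard error 0.07, adjusted p = 5.69e-04) or PKO-6 at 0.15 (standard error 0.07, adjusted p = 0.0559). The PKO-1 value stood just above the threshold and fell just under it, to at least 0.49, when any of 6 libraries was left out (TM6 replicate 1, the 3 rho0 libraries, PKO-6 replicate 1 or PKO-6 replicate 2). Many genes of chromosome 12 stood higher in the derived lines, and the median log2 fold change of its 491 tested genes was 0.55 in rho0, 0.56 in PKO-1 and 0.53 in PKO-6. Relative to that median, *Mthfd1* was at -0.23 in rho0, -0.03 in PKO-1 and -0.38 in PKO-6.

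*Aldh1l1*, the cytosolic formyl-tetrahydrofolate dehydrogenase (chromosome 6, 90550848 to 90599171, plus strand, 23 exons), was the only member with few reads. Its counts were 112, 69 and 55 in the TM6 libraries, 1, 0 and 0 in rho0, 1, 2 and 1 in PKO-1, and 31, 29 and 32 in PKO-6. All derived libraries lay below all TM6 libraries, and *Aldh1l1* was called lower in rho0 (adjusted p = 2.75e-08), PKO-1 (adjusted p = 7.99e-08) and PKO-6 (adjusted p = 3.87e-04). It passed the filter on low counts through TM6 and PKO-6 only, so no call but lower was open to it in rho0 and PKO-1. Against PKO-6, the rate of counts in TM6 was 2.57 times as high (exact 95% interval 2.01 to 3.31). Against PKO-1, with 4 counts in all, it was 50.5 times as high (19.5 to 187), and against rho0, with 1 count, 208 times (37.0 to 8264). These intervals cover counting error only. No fold is given between rho0 and PKO-1, since both had 3 counts or fewer in every library. Even in TM6 the gene stood at only 0.76 TPM (transcript abundance corrected for length and depth).

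In the mitochondrial arm, the means of all 4 enzymes ran upward from TM6 through PKO-6 to rho0. *Shmt2* (chromosome 10, 127517123 to 127522444, minus strand, 12 exons) was measured at 19623, 19547 and 19400 normalized counts in TM6, 50308, 42220 and 44545 in rho0, 23440, 24553 and 22594 in PKO-1, and 43592, 46348 and 39124 in PKO-6. The rho0 and PKO-6 libraries overlapped each other and stood far above the others. *Shmt2* was 2.34-fold higher in rho0 (log2 fold change 1.23, standard error 0.08, adjusted p = 6.26e-09) and 2.20-fold higher in PKO-6 (1.14, standard error 0.08, adjusted p = 1.11e-08). In PKO-1 all libraries exceeded TM6, but at 0.27 (standard error 0.08, adjusted p = 0.00645) the gene was not called. *Shmt2* overlaps *Ndufa4l2* on the other strand by 34 bases, and whether strand was used in counting is not given in the sources used here. *Ndufa4l2* had 7 to 55 counts per library, whereas *Shmt2* had at least 19400 normalized counts in each.

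*Mthfd2*, the mitochondrial dehydrogenase and cyclohydrolase (chromosome 6, 83305704 to 83317604, minus strand, 8 exons), rose in every derived line. TM6 libraries had 6448, 6784 and 6943 normalized counts, rho0 24496, 21016 and 22202, PKO-1 11160, 11610 and 10287, and PKO-6 17244, 17657 and 16135. The 4 lines did not overlap anywhere. The log2 fold change against TM6 was 1.75 in rho0 (standard error 0.07, adjusted p = 7.29e-11), 1.34 in PKO-6 (standard error 0.07, adjusted p = 7.29e-10) and 0.71 in PKO-1 (standard error 0.07, adjusted p = 6.56e-07). After removal of chromosome medians the PKO-1 value was 0.4989 and no longer called.

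*Mthfd1l*, which releases formate in mitochondria (chromosome 10, 3973075 to 4167081, plus strand, 28 exons), rose in rho0 alone of the derived lines by the call used here. The TM6 libraries held 8069, 7834 and 7712 normalized counts, with 17467, 15206 and 16014 in rho0, 6647, 7098 and 6487 in PKO-1, and 10644, 11023 and 9503 in PKO-6. PKO-1 lay below TM6 in every library, and PKO-6 lay between TM6 and rho0. The gene was 2.06-fold higher in rho0 (log2 fold change 1.04, standard error 0.07, adjusted p = 9.13e-09). It was not called in PKO-6 at 0.40 (standard error 0.07, adjusted p = 1.07e-04) or in PKO-1 at -0.22 (standard error 0.07, adjusted p = 0.00995), and the clones differed from each other by -0.62 (standard error 0.07, adjusted p = 2.56e-06), or by -0.43 and no longer called after chromosome medians were removed. The difference between rho0 and PKO-6 was also called, at -0.64 (PKO-6 against rho0, standard error 0.07, adjusted p = 3.02e-06).

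*Aldh1l2*, the mitochondrial counterpart of *Aldh1l1* (chromosome 10, 83487447 to 83534140, minus strand, 23 exons), had the largest rise of all 10. Its normalized counts were 6844, 6924 and 6916 in TM6, 48584, 46591 and 48208 in rho0, 11351, 11632 and 10921 in PKO-1, and 29000, 26569 and 28659 in PKO-6. The libraries of the 4 lines were well apart. *Aldh1l2* was 6.93-fold higher in rho0 (log2 fold change 2.79, standard error 0.06, adjusted p = 1.94e-13), 4.07-fold higher in PKO-6 (2.03, standard error 0.05, adjusted p = 1.16e-12) and 1.64-fold higher in PKO-1 (0.71, standard error 0.05, adjusted p = 4.88e-08). *Mthfd2* and *Aldh1l2* were the only members called higher in all 3 derived lines, where 8.28% of all tested genes were. *Psph* and *Shmt2* joined them in being called higher in both rho0 and PKO-6, where 14.3% of genes were. *Aldh1l1* alone was called lower in all 3, where 9.25% of genes were, but it passed the filter through TM6 and PKO-6 only.

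**Figure D2:**
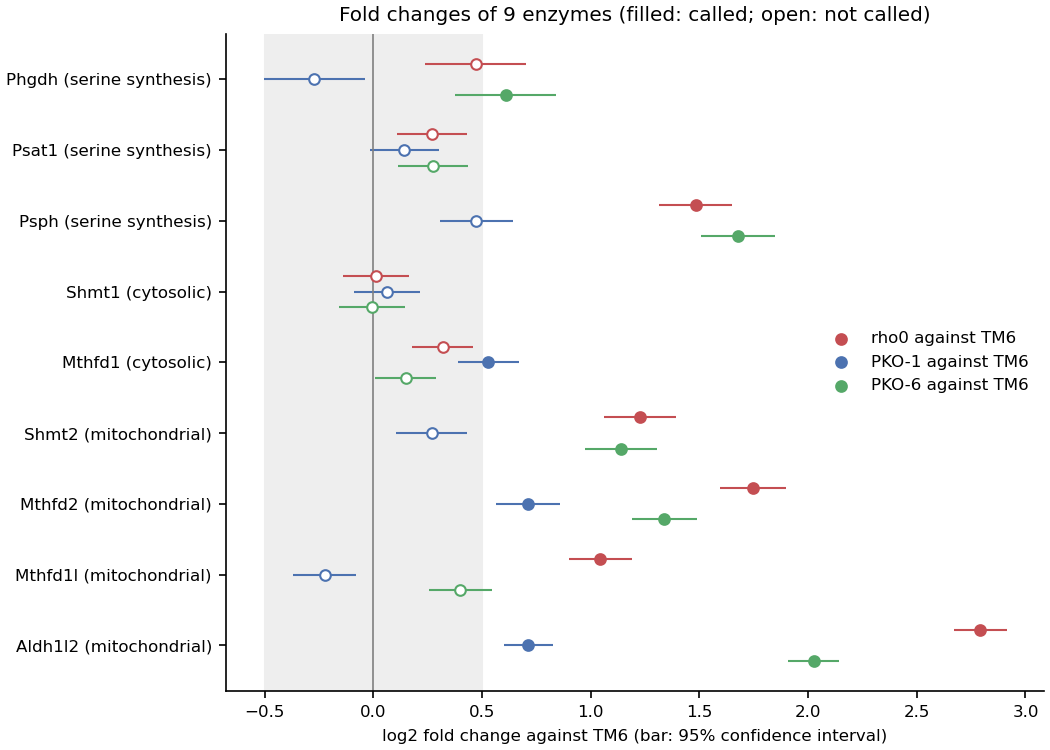
Log2 fold change against TM6 (horizontal axis) of 9 enzymes (vertical axis), with *Aldh1l1* left out because a fold against lines with almost no counts has no fixed size. Bars are 95% confidence intervals, filled points were called, open points were not, and the grey band marks log2 fold changes within 0.5 of 0. *Aldh1l2* stands at 2.79 in rho0, 2.03 in PKO-6 and 0.71 in PKO-1, while the 3 values of *Shmt1* lie on 0.

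The clones were compared directly because they are separate isolates of the same knockout. In PKO-1 against PKO-6, 7 of the 10 enzymes were called lower, where 17.6% of all tested genes were, and 0 were called higher, against 11.5%. DESeq2's Wald test likewise called 7 lower and 0 higher, and 8 of the 10 had an unadjusted edgeR p below 0.05. All 4 mitochondrial enzymes were among the 7, with log2 fold changes from -1.31 (*Aldh1l2*, standard error 0.05, adjusted p = 1.33e-10) to -0.62 (*Mthfd1l*), with *Shmt2* at -0.87 and *Mthfd2* at -0.63. *Phgdh*, *Psph* and *Aldh1l1* were the others, the last having passed the filter through TM6 and PKO-6 only. *Psat1* (-0.13), *Shmt1* (0.07) and *Mthfd1* (0.38) were not called, the last being higher in every PKO-1 library than in any PKO-6 library.

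Against rho0, PKO-1 had 6 enzymes called lower (17.6% of all genes) and 0 higher (15.1%), and DESeq2 gave the same counts with 7 unadjusted edgeR p-values below 0.05. These were *Phgdh* at -0.74, *Psph* at -1.01, *Shmt2* at -0.96, *Mthfd2* at -1.03, *Mthfd1l* at -1.27 and *Aldh1l2* at -2.08. PKO-6 was nearer to rho0: 2 enzymes were called lower (8.16% of all genes), *Mthfd1l* and *Aldh1l2* at -0.77 (standard error 0.05, adjusted p = 4.85e-08), and 1 higher (13.3%), *Aldh1l1*. The filter, passed by *Aldh1l1* through TM6 and PKO-6 only, left no call but higher open to it here. *Mthfd2* lay below rho0 in every PKO-6 library but at -0.41 was under the fold threshold (standard error 0.07, adjusted p = 1.92e-04). For *Phgdh*, *Psat1*, *Psph*, *Shmt1* and *Shmt2*, the PKO-6 and rho0 libraries overlapped and the adjusted p was 0.0443 or more, and *Mthfd1*, which also overlapped, was at -0.17 (standard error 0.07, adjusted p = 0.0388).

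Both clones were also pooled as 1 knockout group, and then only 2 members were called, *Mthfd2* at 1.06 (standard error 0.18, adjusted p = 5.12e-04) and *Aldh1l2* at 1.51 (standard error 0.36, adjusted p = 0.0046), where 13.5% of all genes were called higher. None was called lower, where 12.2% of all genes were, and 7 of the 10 had an unadjusted p below 0.05. *Psph* had a fold change of 1.198 (adjusted p = 0.0107) and *Shmt2* one of 0.77 (adjusted p = 0.02), neither of which passed. DESeq2's Wald test called 4 higher and 0 lower, these 2 included. The *Aldh1l2* call was lost with the replicate number as a block (adjusted p = 0.0131) and with rho0 left out of the fit. It was also lost when any 1 of the 3 TM6 libraries was left out, and 4 members were called without PKO-1 replicate 3. The standard error of *Aldh1l2* was 0.36 here and 0.05 in the fit of 4 lines, since pooling counts the difference between clones as spread. The pooled fit still took the 6 knockout libraries as independent, although they are cultures of 2 clones. Its p-values therefore overstate the evidence over clones.

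To set genes against each other, levels per length were taken from the deposited TPM values. In TM6 the serine synthesis enzymes *Psat1* (353 ± 10.1 TPM, SD, n = 3) and *Phgdh* (347 ± 9.11) led, followed by *Shmt2* (279 ± 2.51) and *Mthfd2* (108 ± 4.09). In rho0 and PKO-6 *Shmt2* led, at 641 ± 13.1 and 590 ± 13.2 TPM, and *Phgdh* and *Psat1* came next. *Psat1* again led in PKO-1, at 372 ± 6.05 TPM. *Aldh1l2* climbed from the eighth place among the 10 in TM6 (35.7 ± 0.224 TPM) to the fifth in rho0 (244 ± 13.8 TPM). *Shmt1* held between 29.5 and 30.8 TPM in all lines and ranked ninth, above *Aldh1l1* only.

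Summed over its 4 members, the mitochondrial arm had 490 ± 3.4 TPM in TM6, 1379 ± 21.95 in rho0, 601 ± 5.05 in PKO-1, with 1079 ± 6.76 in PKO-6 (SD, n = 3). By contrast the cytosolic arm had 120 ± 1.03, 140 ± 0.757, 153 ± 4.52 and 125 ± 3.37 TPM in the same order, so its range over the lines was small beside that of the mitochondrial arm. Serine synthesis had 748 ± 2.31, 1021 ± 37.0, 710 ± 7.33 and 1064 ± 50.2 TPM. PKO-1 lay below TM6 in every library, and the ranges of rho0 and PKO-6 overlapped.

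**Figure D3:**
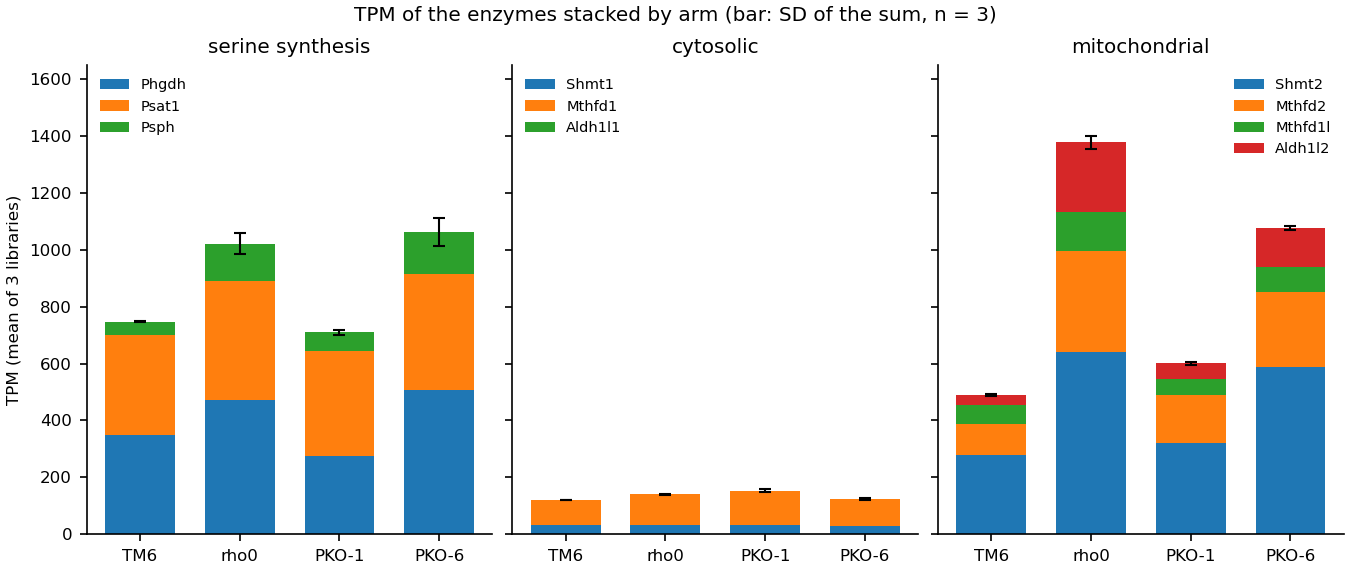
Mean TPM of 3 libraries (vertical axis) for each enzyme, stacked by arm, in the 4 lines (horizontal axis). Error bars are the SD of the summed level. The mitochondrial stack reaches 1379 TPM in rho0 and 1079 in PKO-6 from 490 in TM6, while the cytosolic stack stays between 120 and 153.

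Ratios of the mitochondrial to the cytosolic enzyme were formed within each library, where the library's scaling cancels. They are given as descriptions without a test. The TPM ratio of *Shmt2* to *Shmt1* was 9.25, 9.22 and 8.70 in TM6, 21.5, 20.3 and 21.2 in rho0, 9.80, 10.9 and 10.7 in PKO-1, and 20.08, 19.996 and 19.992 in PKO-6. Rho0 and PKO-6 thus stood at 2.32 and 2.21 times the TM6 ratio, with PKO-1 just above TM6 at 1.15 times. The ratio of *Mthfd2* to *Mthfd1* was 1.18, 1.198 and 1.26 in TM6, 3.26, 3.24 and 3.30 in rho0, 1.36, 1.44 and 1.34 in PKO-1, and 2.84, 2.66 and 2.81 in PKO-6. Here too the libraries of each line kept to a narrow range, and the order of the lines was the same.

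The ratio of *Mthfd1l* to *Mthfd1* had another order. It was 0.795, 0.740 and 0.749 in TM6, 1.25, 1.26 and 1.27 in rho0, 0.433, 0.472 and 0.451 in PKO-1, and 0.941, 0.893 and 0.884 in PKO-6. PKO-1, at 0.593 times the TM6 ratio, lay below the parental line in all 3 libraries, and the log2 difference of -0.75 in PKO-1 stands against 0.73 in rho0 and 0.25 in PKO-6. Since *Mthfd1* lies on chromosome 12, whose median was raised in all derived lines, ratios over *Mthfd1* carry that shift. The ratio of *Aldh1l2* to *Aldh1l1* was formed only in TM6 and PKO-6, where *Aldh1l1* had more than 3 counts in each library, at 35.0, 52.2 and 62.0 against 566, 435 and 451.

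**Figure D4:**
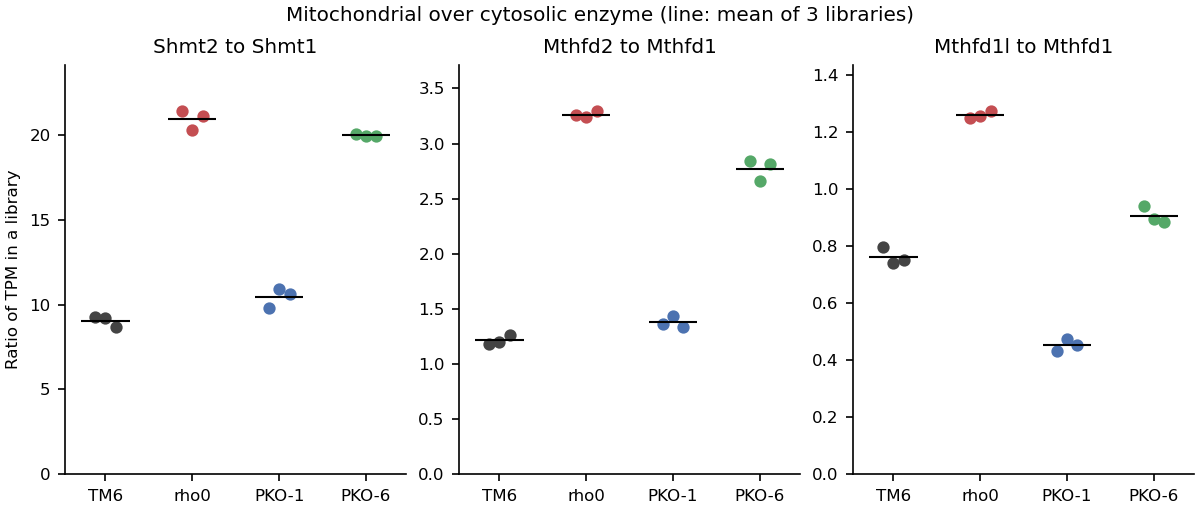
TPM of the mitochondrial enzyme over that of the cytosolic enzyme (vertical axes, each from 0) in each library of the 4 lines (horizontal axes). Points are libraries and lines are means. The mean ratio of *Shmt2* to *Shmt1* is 9.06 in TM6, 20.98 in rho0, 10.5 in PKO-1 and 20.02 in PKO-6.

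In the derived lines, most enzymes stood high or low in the same cultures by normalized counts. Leaving out *Aldh1l1*, rho0 replicate 1 was the highest of its line for 9 of 9 members and rho0 replicate 2 the lowest for 9 of 9, and PKO-1 replicate 3 was the lowest for 9 of 9. PKO-6 replicate 2 was the highest for 8 of 9 and PKO-6 replicate 3 the lowest for 8 of 9. In TM6 each replicate was the highest for 3 of 9. *Rn45s* took 19.6% of rho0 replicate 1, the highest share of its line, and 12.2% of PKO-6 replicate 3, the lowest of its line. In PKO-1 the direction was opposite, since replicate 3, where the enzymes were lowest, had the highest share of its line at 15.7%. The TMM factor, which enters the normalized counts, was lowest of its line in rho0 replicate 1 (0.936), PKO-6 replicate 2 (0.964) and PKO-1 replicate 2 (0.981, the highest for 7 of 9 members). It was highest in rho0 replicate 2 (1.041) and PKO-6 replicate 3 (1.092), but in PKO-1 in replicate 1 (1.0047), just above replicate 3 (1.0037). The parts of *Rn45s* and of this factor in the order were not tested, and how many of all genes share the order was not counted. By TPM the order did not hold in rho0 and PKO-1. There rho0 replicate 1 was the highest only for *Phgdh*, *Psph* and *Shmt2*, and the lowest for *Shmt1* and *Aldh1l2*. PKO-1 replicate 3 was the lowest only for *Psat1*, *Psph* and *Mthfd2*. PKO-6 replicate 2 stayed the highest for most members. Over the 9 members the median coefficient of variation was 1.84% of the mean for TPM and 7.84% for normalized counts in rho0, 2.32% and 8.04% in PKO-6, 1.84% and 4.96% in PKO-1, and 2.62% and 2.30% in TM6, so that TPM varied less in the derived lines but not in TM6.

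Transcript choice differed little between lines where the annotation lists several transcripts. The main transcript of *Shmt2* held 84.6% ± 0.87 of the gene's TPM in TM6, 85.3% ± 1.42 in rho0, 83.5% ± 0.693 in PKO-1, with 84.7% ± 1.88 in PKO-6 (SD, n = 3). That of *Psat1* held at least 99.3% in every library. For *Mthfd1l* the main transcript held 75.04% ± 5.4, 70.5% ± 2.06, 74.3% ± 3.14 and 76.1% ± 4.86 in the same order, which overlapped between lines.

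Promoters are shown for 4 members that rose in rho0 and for the 2 cytosolic genes that pair with them, to set the sequences of the arms side by side. RefSeq promoter windows on GRCm38.p6, from 250 bases before to 50 after a start, matched 9 of the 10 genes with 10 windows, since *Psat1* has 2 starts. *Aldh1l2* had no entry. Each line gives the 250 bases before the start, 5′ to 3′, in lower case with CCAAT boxes of either strand (CCAAT or ATTGG) in capitals.
Psph promoter, chr5:129787254-129787503, minus strand: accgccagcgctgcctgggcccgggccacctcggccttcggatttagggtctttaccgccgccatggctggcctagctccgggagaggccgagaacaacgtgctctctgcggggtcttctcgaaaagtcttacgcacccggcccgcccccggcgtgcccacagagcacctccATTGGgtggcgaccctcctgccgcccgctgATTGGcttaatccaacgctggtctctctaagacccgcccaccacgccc
Shmt2 promoter, chr10:127522445-127522694, minus strand: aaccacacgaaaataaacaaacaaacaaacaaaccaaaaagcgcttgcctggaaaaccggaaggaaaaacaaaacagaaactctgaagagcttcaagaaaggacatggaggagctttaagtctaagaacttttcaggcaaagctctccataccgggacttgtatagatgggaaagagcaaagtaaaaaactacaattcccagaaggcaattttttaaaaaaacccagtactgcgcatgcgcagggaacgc
Mthfd2 promoter, chr6:83317605-83317854, minus strand: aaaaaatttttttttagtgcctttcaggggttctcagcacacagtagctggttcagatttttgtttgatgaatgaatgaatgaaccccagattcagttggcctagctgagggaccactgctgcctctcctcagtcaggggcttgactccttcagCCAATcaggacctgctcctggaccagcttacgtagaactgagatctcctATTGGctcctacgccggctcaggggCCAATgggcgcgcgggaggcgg
Mthfd1l promoter, chr10:3972825-3973074, plus strand: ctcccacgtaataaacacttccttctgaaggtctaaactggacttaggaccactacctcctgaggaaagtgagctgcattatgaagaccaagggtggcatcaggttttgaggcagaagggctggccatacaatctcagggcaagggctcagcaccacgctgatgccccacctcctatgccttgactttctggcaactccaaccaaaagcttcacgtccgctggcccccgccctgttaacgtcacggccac
Shmt1 promoter, chr11:60811266-60811515, minus strand: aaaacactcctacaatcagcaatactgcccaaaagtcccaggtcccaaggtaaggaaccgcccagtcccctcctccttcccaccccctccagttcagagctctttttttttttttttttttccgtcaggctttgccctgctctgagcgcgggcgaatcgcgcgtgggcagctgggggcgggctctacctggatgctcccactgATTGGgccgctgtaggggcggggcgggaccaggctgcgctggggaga
Mthfd1 promoter, chr12:76254982-76255231, plus strand: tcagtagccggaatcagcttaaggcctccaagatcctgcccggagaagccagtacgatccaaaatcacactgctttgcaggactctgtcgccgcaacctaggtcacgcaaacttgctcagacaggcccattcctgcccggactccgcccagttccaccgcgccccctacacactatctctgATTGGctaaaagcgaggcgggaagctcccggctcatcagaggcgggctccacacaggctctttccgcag

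The windows of 300 bases were searched on both strands for TGATGNAA, a core of the composite element bound by ATF4 with C/EBP proteins, and for CACGTG, the E-box. None of the 9 genes held either, where 3.97% and 7.15% of all 32851 windows did, those of the members included. CCAAT, a common promoter element, was searched after the windows had been read. It was present in 7 of the 9 genes (77.8%), against 37.4% of all windows. Members were counted by gene, with a match in either *Psat1* window enough, and the whole set by window. *Mthfd2* held 3 copies and *Psph* 2, and *Shmt1* and *Mthfd1* held 1 each. The windows of *Shmt2* and *Mthfd1l* held no copy. The element was thus present in members that rose, in *Shmt1*, which was not called, and in *Aldh1l1*, which was called lower. A match is a description of letters only.

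The stress pathway that is known to act on these genes was examined with a list of 12 genes, *Atf4* and its usual readouts, of which all were tested. In rho0 and in PKO-6 11 were called higher, and in PKO-1 6 were called higher and 1 lower, with median log2 fold changes of 1.81, 2.15 and 0.79. Over all tested genes, against which the counts of this list and of those below are to be read, 20.7% were called higher and 21.4% lower in rho0, 16.4% and 17.9% in PKO-1, and 21.9% and 19.4% in PKO-6, with medians of 0.02, 0.00086 and 0.01. *Atf4* itself, singled out after its values were seen, had 15274 ± 96.0 normalized counts in TM6, 30936 ± 2735 in rho0, 16200 ± 864 in PKO-1, against 34569 ± 1313 in PKO-6 (SD, n = 3). It was called higher in rho0 (1.02, standard error 0.07) and PKO-6 (1.18, standard error 0.07) and was at 0.08 in PKO-1 (standard error 0.07, adjusted p = 0.283). The 6 readouts called higher in all 3 lines were *Atf5*, *Trib3*, *Chac1*, *Gdf15*, *Sesn2* and *Vldlr*. *Trib3*, a pseudokinase that restrains the same pathway, was at 3.77 in rho0, 1.52 in PKO-1 and 3.46 in PKO-6. *Sesn2*, a sensor of leucine, was at 2.69, 1.38 and 2.79, and *Gdf15*, a secreted stress hormone, at 4.04, 2.21 and 3.34. *Vldlr*, a lipoprotein receptor, was at 5.01, 3.96 and 4.33. *Atf5*, a transcription factor of the mitochondrial stress response, was at 1.18, 0.87 and 1.67, and *Chac1*, which degrades glutathione, at 1.98, 0.71 and 2.59. The 1 readout lower in PKO-1 was *Nupr1*, at -0.64, which was at 0.67 in rho0. The mean of PKO-1 lay below those of rho0 and PKO-6 for all 12 genes, and 10 were called lower in PKO-1 against PKO-6, 10 against rho0 and 9 in both tests.

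Of the folate cycle and carriers, 13 of 16 listed genes were tested, and 3 were called higher and 2 lower in rho0, 1 and 1 in PKO-1, and 2 and 2 in PKO-6, with medians of 0.11, -0.15 and -0.10. The shares of 23.1% higher and 15.4% lower in rho0 were near those of all genes, and in PKO-1 both were 7.69%. *Ggh*, which trims the glutamate tail of folates, was called higher in all 3 (0.56, 0.73 and 1.15). *Mthfd2l*, a paralog of *Mthfd2* for the same mitochondrial step, and *Slc25a32*, the mitochondrial folate carrier, were looked up after the values were seen. *Mthfd2l* had 1002 ± 45.1 normalized counts in TM6, 564 ± 19.2 in rho0, 906 ± 42.8 in PKO-1 and 683 ± 50.0 in PKO-6, so that it was called lower in rho0 (-0.83) and PKO-6 (-0.55), the opposite direction to *Mthfd2*. *Slc25a32* was called lower in rho0 (-0.62) and was at -0.48 in PKO-6 and -0.20 in PKO-1.

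Glycine, the other product of the SHMT step, is broken down by the glycine cleavage system of mitochondria. Of its list, together with the oxidation of methylated glycines, 5 of 7 genes were tested, and 2 were called higher and 3 lower in rho0, 1 and 2 in PKO-1, and 1 and 3 in PKO-6, with medians of -0.93, -0.30 and -0.79. *Gldc*, the decarboxylase that starts glycine cleavage, was low throughout, with 41.3 ± 4.09 normalized counts in TM6, 11.9 ± 5.55 in rho0, 6.91 ± 1.49 in PKO-1 and 13.6 ± 1.96 in PKO-6, and was called lower in all 3 derived lines. *Sardh*, which oxidizes sarcosine to glycine, was also called lower in all 3, at -1.55 in rho0, -1.74 in PKO-1 and -0.79 in PKO-6. *Dld*, a subunit that the system shares with pyruvate dehydrogenase, was called higher in all 3 (0.79, 0.57 and 0.61). It lies on chromosome 12, whose median stood at 0.53 to 0.56.

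In the methionine cycle and the entry to transsulfuration, which draws on serine, 7 of 11 genes were tested, and 4 were called higher and 1 lower in rho0, 3 and 1 in PKO-6, and 1 higher in PKO-1, with medians of 0.51 in rho0, -0.08 in PKO-6 and -0.25 in PKO-1. *Cth*, the lyase that makes cysteine, had 664 ± 29.6 normalized counts in TM6, 11772 ± 865 in rho0, 3133 ± 328 in PKO-1 and 10373 ± 336 in PKO-6. TM6 was lowest, PKO-1 next, and rho0 and PKO-6 close together at the top, with log2 fold changes of 4.15 (standard error 0.09), 2.24 (standard error 0.08) and 3.97 (standard error 0.09). *Cbs*, the enzyme before it, was not tested, with a mean of 8.04 normalized counts in TM6 and 2.03 to 5.75 in the other lines.

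Of serine transport and use, 13 of 14 genes were tested, and 5 were called higher and 1 lower in rho0, 3 and 1 in PKO-1, and 5 higher in PKO-6, with medians of 0.34, 0.13 and 0.45. The neutral amino acid transporters *Slc1a4* and *Slc1a5* rose in all 3 lines, *Slc1a4* by 1.29 in rho0, 0.60 in PKO-1 and 1.02 in PKO-6, and *Slc1a5* by 1.75, 0.54 and 1.55. *Sdsl*, a gene related to serine dehydratase, rose by 2.49, 1.11 and 2.92 from 17.9 normalized counts in TM6. Purine synthesis, which takes up formyl groups, had 8 of 8 genes tested, with 2 called higher and 1 lower in PKO-1, and 1 lower in rho0 and 2 in PKO-6. *Prps2*, which makes the ribose phosphate donor, had the smallest adjusted p of that list in rho0 (-1.03, adjusted p = 7.52e-09), and was at -0.15 in PKO-1 and -0.69 in PKO-6. Of 9 tested genes of mitochondrial NADP(H) and proline partners, 2 were called higher in rho0, 1 was called higher and 1 lower in PKO-1, and 2 and 1 in PKO-6, and *Aldh18a1*, which starts proline synthesis, was higher in all 3 (1.26, 0.53 and 1.12).

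**Figure D5:**
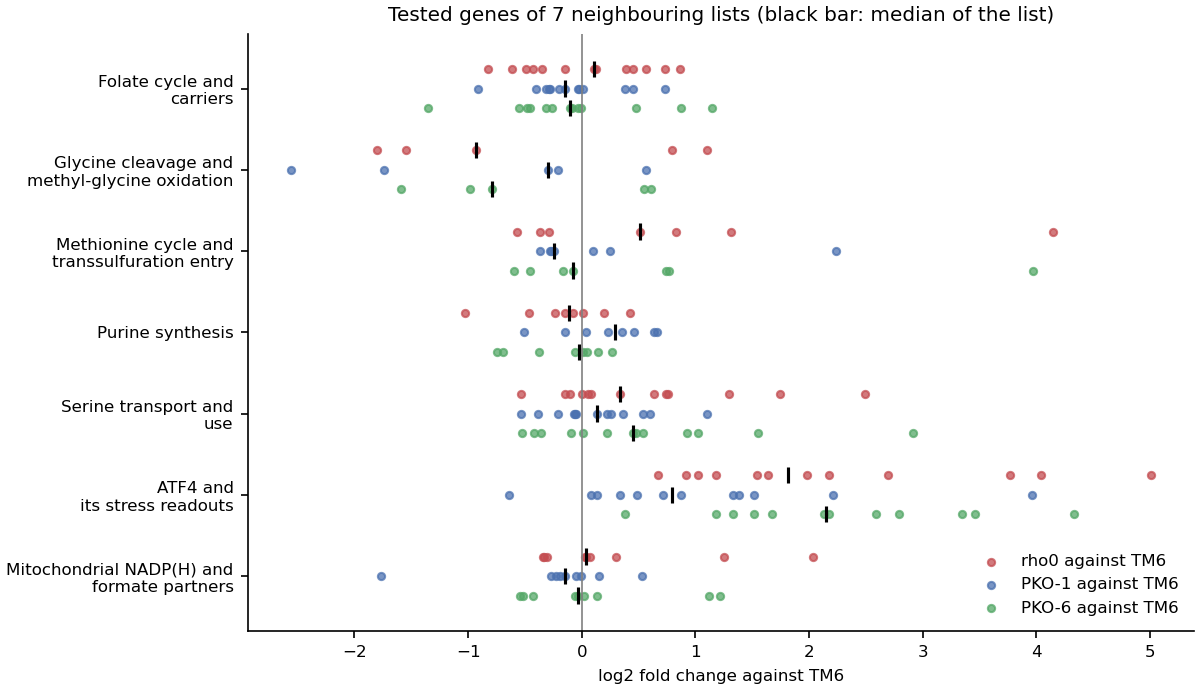
Log2 fold change against TM6 (horizontal axis) of every tested gene in 7 lists of neighbouring pathways (vertical axis), with a black bar at each list's median. The medians of the ATF4 list lie at 1.81, 0.79 and 2.15 in rho0, PKO-1 and PKO-6, while those of purine synthesis lie at -0.11, 0.29 and -0.03.

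Among the 11204 genes whose mean reached 100 normalized counts, likeness to *Phgdh* and to *Mthfd2* was measured by Pearson's r of log2 CPM over the 12 libraries, which share the 4 lines. The genes most like *Phgdh* were *Mars* (r = 0.992), *Cebpb* (0.985), *Amdhd2* (0.982), *E130012A19Rik* (0.977) and *9030624J02Rik* (0.975). Those most like *Mthfd2* were *Bcat1* (0.997), *Hspa9* (0.996), *Wars* (0.996), *Slc1a4* (0.996) and *Lars* (0.995). *Mars*, *Wars* and *Lars* encode aminoacyl-tRNA synthetases, *Hspa9* a mitochondrial chaperone and *Bcat1* a transaminase of branched-chain amino acids. Among the members, *Aldh1l2* was the most like *Mthfd2* (0.983, rank 36) and *Shmt2* followed (0.961, rank 178), whereas *Phgdh* stood at 0.702. *Phgdh* was more like *Shmt2* (0.865) than like *Psat1* (0.730), its neighbour in the pathway, and *Shmt1* was at 0.01 to *Phgdh* and 0.04 to *Mthfd2*.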

How the data were processed

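RNA from 12 cultures of 4 MEF lines was depleted of ribosomal RNA and made into strand-specific libraries in technical duplicate, whose reads the authors merged. The authors aligned reads to RefSeq transcripts of mm10 (GRCm38) with RSEM 1.2.25 and Bowtie2. The deposited gene table holds expected counts (not normalized), of which 12.5% had decimals, and these were rounded. The deposited tables of single libraries hold expected counts and TPM per transcript, which the authors' RSEM runs gave, with a percent per transcript and a further column, treated as a score, that repeats the gene's TPM. TPM moves with the share taken by *Rn45s*, but ratios within a library do not.

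edgeR 4.0.16 (R 4.3.3) filtered genes (filterByExpr, minimum count 10), scaled libraries by TMM and tested all pairs of lines in 1 fit by quasi-likelihood. The knockout clones were also pooled in a fit of 3 groups. The standard error is the fold change over the square root of F. Called genes passed an adjusted p of 0.01 and a log2 fold change of 0.5. Fibroblast, epithelial, endothelial, blood and macrophage, neural and muscle markers were summed. Samples were grouped by their labels. Alternatives were DESeq2 1.42.0, its size factors, no filter, a replicate block, compared groups only, removal of chromosome medians, a threshold of 1 and omission of each library. The test was tried on simulated data. The enzymes, gene lists and naming rules were chosen with earlier results of these data known. Named genes were the members, the genes of each list called in 1 direction in all 3 derived lines (otherwise the one with the smallest adjusted p in rho0), the 5 genes most like *Phgdh* and *Mthfd2*, and *Pnpt1*, with exceptions stated. Same-numbered libraries of TM6 and PKO-6 deviated together in all 3 pairs, at correlations of 0.21 to 0.25. Over all lines the correlation exceeded 0.1 in 10 of 18 same-numbered pairs (-0.39 to 0.25). Libraries of unlike number were not compared, so whether the numbers mark a shared batch cannot be told. The labels state none. The study names TriZol or the RNeasy Mini Kit for RNA purification and does not say which cultures had which. Promoters are RefSeq's. Protein sequences were not used here.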

Additional observations from a re-analysis of the deposited data

Results flagged for a closer look

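The 2 knockout clones differed for 7 members by the direct test of PKO-1 against PKO-6 in the fit of 4 lines. Both clones carry the knockout, so these are differences between isolates. Each clone is 1 isolate, so in a clone against TM6 an effect of the knockout and a trait of the isolate cannot be told apart. The log2 differences were -0.88 for *Phgdh*, -1.204 for *Psph*, -4.19 for *Aldh1l1*, -0.87 for *Shmt2*, -0.63 for *Mthfd2*, -0.62 for *Mthfd1l* and -1.31 for *Aldh1l2*. The value of *Aldh1l1* rests on 4 counts in PKO-1 and is no fixed size, and the gene passed the filter through TM6 and PKO-6 only. *Mthfd1l* and *Phgdh* stood on opposite sides of TM6 in the clones, in every library. With 3 libraries per line, no test for single values far from their group was run.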

How the results depend on the processing

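Over all alternatives, 1279 of 1349 fold changes of single members kept their direction and their side of the thresholds, 38 crossed a threshold and 32 changed sign, of which 1 had been called. The 1349 include the 70 main fold changes read again at a log2 threshold of 1, whose direction could not change. Removal of chromosome medians kept the adjusted p of the main fit. Removal of chromosome medians turned *Mthfd1* against TM6 to -0.23 in rho0, -0.028 in PKO-1 (the called one, which left 1 member higher there), -0.38 in PKO-6 and -0.21 in the pooled PKO. It also turned *Shmt1* to 0.058 in PKO-6 against TM6, -0.065 in PKO-1 against PKO-6 and 0.062 in PKO-6 against rho0, and in the last comparison *Phgdh* to -0.11, *Psph* to -0.067 and *Psat1* to -0.0043. *Psat1* there was at -0.0054 with DESeq2's Wald test and with its size factors, and *Shmt1* in rho0 against TM6 was at -0.012 with the compared groups only. With a library left out, *Shmt1* ranged from -0.060 to 0.034 in rho0, -0.097 to 0.058 in PKO-6 and -0.016 to 0.063 in the pooled PKO against TM6, and from -0.088 to 0.048 in PKO-6 against rho0, where *Psat1* ranged from -0.066 to 0.065. With a log2 threshold of 1, genes called higher and lower were 1490 and 1454 in rho0 against TM6, 927 and 1347 in PKO-1 against TM6, 1712 and 1326 in PKO-6 against TM6, 551 and 1399 in PKO-1 against PKO-6, 804 and 1398 in PKO-1 against rho0, 1014 and 496 in PKO-6 against rho0, and 931 and 857 in the pooled PKO against TM6. At that threshold 0 members were higher in PKO-1 against TM6, 3 were lower in PKO-1 against PKO-6 and 0 were lower in PKO-6 against rho0. With the clones pooled in 3 groups, 1922 genes were called higher in rho0. For the pooled PKO, 2 members were called higher, but 4 with DESeq2's Wald test and 4 with the mean of both clones in the fit of 4 lines (with 1 called lower), 1 with the compared groups only, 1 with the replicate block, and 1 to 4 with a library left out. Beyond that call, the replicate block moved no count of members by over 1.5 times, and in PKO-6 against TM6, the pair whose replicate numbers deviate together, 5 members were still called higher and 1 lower. A pseudocount of 1 TPM moved the log2 difference of the *Aldh1l2* to *Aldh1l1* ratio from 3.31 to 2.38. Depth limits *Aldh1l1* only. Causes were not tested.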
